A study of Homo sapiens with 12 samples.

Results

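The genes examined here are 10 members of the insulin-like growth factor (IGF) and insulin signalling system: the binding protein genes IGFBP2, IGFBP3, IGFBP4, IGFBP5 and IGFBP6, the receptor genes IGF1R, IGF2R and INSR, and the docking protein genes IRS1 and IRS2. They were taken by gene symbol from the platform annotation, which places 12 probes on them among 47318 and names 20044 genes in all. RNA came from SKBR-3, a human breast cancer cell line known for ERBB2 (HER2) amplification, and was hybridised to Illumina bead arrays. There were 6 groups of 2 arrays: Y15 at 1 µM with lapatinib at 5 µM, PF04554878 at 1 µM with lapatinib at 5 µM, Y15 alone at 1 µM, PF04554878 alone at 1 µM, lapatinib alone at 5 µM, and untreated cells. Drugs were given for 24 hours. The 2 arrays labelled Y15 plus lapatinib are numbered 1 and 3, and the extraction text speaks of frozen tissue although a cell line is named. Y15 and PF04554878 inhibit focal adhesion kinase (FAK), and lapatinib inhibits the kinases of EGFR and HER2. No vehicle is named for the untreated cells, and nothing in the labels says whether the 2 arrays of a group came from separate cultures, so each p-value reflects the spread between these arrays, which may be technical. The series asks how FAK and EGFR/HER2 inhibition, alone and together, alter expression, and this gene set shows how the IGF and insulin branch differed between the groups.

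IGF-I and IGF-II signal through the tyrosine kinase receptor encoded by IGF1R, and insulin through the related receptor encoded by INSR. Both receptors phosphorylate the docking proteins IRS1 and IRS2, which recruit PI3-kinase and so feed the AKT and mTOR pathway. The binding proteins are secreted, hold IGFs with high affinity and control how much ligand reaches the receptor, while IGF2R, the cation-independent mannose-6-phosphate receptor, has no kinase and carries IGF-II and lysosomal enzymes to lysosomes. In breast cancer the IGF receptor is a well-studied route by which cells can maintain PI3-kinase signalling when HER2 is inhibited.

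Values are log2 intensities. A probe was counted as above background where it exceeded 6.80 on this scale, and 11564 genes with a probe above that level on at least 2 of the 12 arrays were tested with limma. Background remains in these values to an unknown extent, so fold differences are compressed, most of all for dim probes. Of the 10 members, 9 were tested. INSR was not, because its only probe stayed below the background cutoff on all 12 arrays. Levels of different probes are not comparable with each other, so every comparison below is of the same probe between groups.

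The arrays did not group by treatment alone. Across the tested genes, arrays of the same group correlated with r from 0.987 to 0.995. Nearly as high, from 0.983 to 0.988, was r between Y15 and untreated arrays, between Y15 plus lapatinib and lapatinib arrays, and between PF04554878 plus lapatinib and PF04554878 arrays. Between the 3 sets so formed r was 0.873 to 0.938. ESR1, the oestrogen receptor gene, which SKBR-3 is known to lack, exceeded the cutoff on each of the 12 arrays, and its group means lay between 9.85 and 10.44. PGR, the progesterone receptor gene, also expected to be low in SKBR-3, exceeded the cutoff on each of the 12 arrays. Its group means ran from 7.83 to 10.55. ERBB2 (8.34 to 9.35) and its neighbour GRB7 (7.21 to 8.07), both amplified in SKBR-3, were above background in every group as well. The ESR1 and PGR levels go against the labelled line. Signal above background does not show amplification, so ERBB2 and GRB7 do not settle which line this is. Groups are therefore called "the arrays labelled" by their treatment. A comparison within a set (Y15 against untreated, Y15 plus lapatinib against lapatinib, PF04554878 plus lapatinib against PF04554878) does not cross the sets. In every other comparison the treatment and whatever separates the sets cannot be told apart. All 7 luminal epithelial markers listed were above background, whereas 9 of 13 fibroblast markers, among them COL1A2, COL3A1, DCN and PDGFRB, did not pass the filter. The summed linear signal of the 4 fibroblast markers that passed ran from 436 to 457 with Y15 plus lapatinib, 592 to 597 with PF04554878 plus lapatinib, 504 to 519 with Y15, 793 to 795 with PF04554878, 440 to 476 with lapatinib and 490.0 to 492.0 in untreated arrays. This sum was highest in the arrays where IGFBP5 was lowest. The sum of the 7 luminal markers was high in the same arrays, at 40571 to 41905 with PF04554878 plus lapatinib and 40028 to 40397 with PF04554878, against 24137 to 30477 on the other 8. The basal sum (2 of 5 markers on the array, ACTA2 and CDH3) was 983 to 1080 with lapatinib, 959 to 988 with PF04554878 plus lapatinib and 879 to 942 with PF04554878. It was lower, at 819 to 827, with Y15 plus lapatinib, where IGFBP4 was highest, and 624 to 670 with Y15. Untreated arrays had the lowest sum, at 462 to 578, and the lowest IGFBP4. In lapatinib arrays, where IRS2 was below background, the only adipocyte marker of 6 that passed (LEP) read 120 to 124 against 237 to 276 untreated, and the only leukocyte marker of 8 (CD68) 168 to 170 against 255 to 266. The only endothelial marker of 8 (ESAM) ran from 134 to 149 with lapatinib against 88.9 to 100.4 untreated. The part of these markers in any result was not tested. In bulk RNA, fewer expressing cells and less RNA per cell cannot be told apart.

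IGFBP5 encodes the most conserved of the binding proteins, secreted and held in the extracellular matrix, and it showed the widest range of the 10 members on these arrays. Its brighter probe read 12.83 and 12.69 in the arrays labelled Y15 plus lapatinib, 10.26 and 9.98 with PF04554878 plus lapatinib, 13.01 and 12.91 with Y15, 9.84 and 9.83 with PF04554878, 12.87 and 13.00 with lapatinib, and 12.33 and 12.47 untreated. The 4 arrays that received PF04554878 were therefore low and did not overlap the other 8, which all lay between 12.33 and 13.01. A second IGFBP5 probe read 11.73 and 11.68, 9.22 and 8.88, 11.73 and 11.83, 8.93 and 8.84, 12.08 and 12.11, and 11.16 and 11.07 in the same order of groups. The 2 probes correlated with r = 0.993 over the 12 arrays, as a description of arrays that share their group structure. In the order of group means on the brighter probe, Y15 and lapatinib overlapped, and every other pair of neighbours was separated.

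IGFBP4, whose product mainly restrains IGF action and is cut by the protease pappalysin, ran in another order. It read 11.44 and 11.26 in the arrays labelled Y15 plus lapatinib, 10.59 and 10.45 with PF04554878 plus lapatinib, 10.60 and 10.09 with Y15, 10.03 and 10.22 with PF04554878, 11.14 and 11.21 with lapatinib, and 9.40 and 9.53 untreated. Every treated array lay above both untreated arrays, and the 4 arrays of the lapatinib and Y15 plus lapatinib groups were the highest. The Y15 arrays overlapped those of PF04554878 plus lapatinib and those of PF04554878, which did not overlap each other.

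IGFBP2, a binding protein often raised in breast and other carcinomas, was the most variable member between replicates. It read 8.64 and 8.52 in the arrays labelled Y15 plus lapatinib, 9.70 and 9.92 with PF04554878 plus lapatinib, 9.61 and 9.44 with Y15, 10.20 and 10.74 with PF04554878, 9.54 and 9.17 with lapatinib, and 10.14 and 9.23 untreated. The untreated arrays alone had an SD of 0.65 and overlapped the PF04554878 plus lapatinib, Y15 and lapatinib groups. The PF04554878 arrays were the highest and the Y15 plus lapatinib arrays the lowest, each without overlap with its neighbour in the order. IGFBP2 and IGFBP5 are immediate neighbours among the protein-coding genes of chromosome 2 in RefSeq, and the same PF04554878 arrays that held the highest IGFBP2 values held the lowest IGFBP5 values.

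The remaining binding protein genes were dim. IGFBP3, which encodes the main carrier of IGFs in blood, was above background only in the Y15 arrays (6.95 and 6.83) and the untreated arrays (6.99 and 7.22), and its brighter probe lay between 6.51 and 6.75 on the other 8. Its second probe exceeded the cutoff on 2 of 12 arrays, Y15 replicate 2 at 7.03 and untreated replicate 2 at 6.85. IGFBP6, whose product prefers IGF-II, stayed between 6.66 and 6.96 and crossed the cutoff on 6 arrays, those labelled PF04554878 plus lapatinib, Y15 and lapatinib.

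**Figure D1:**
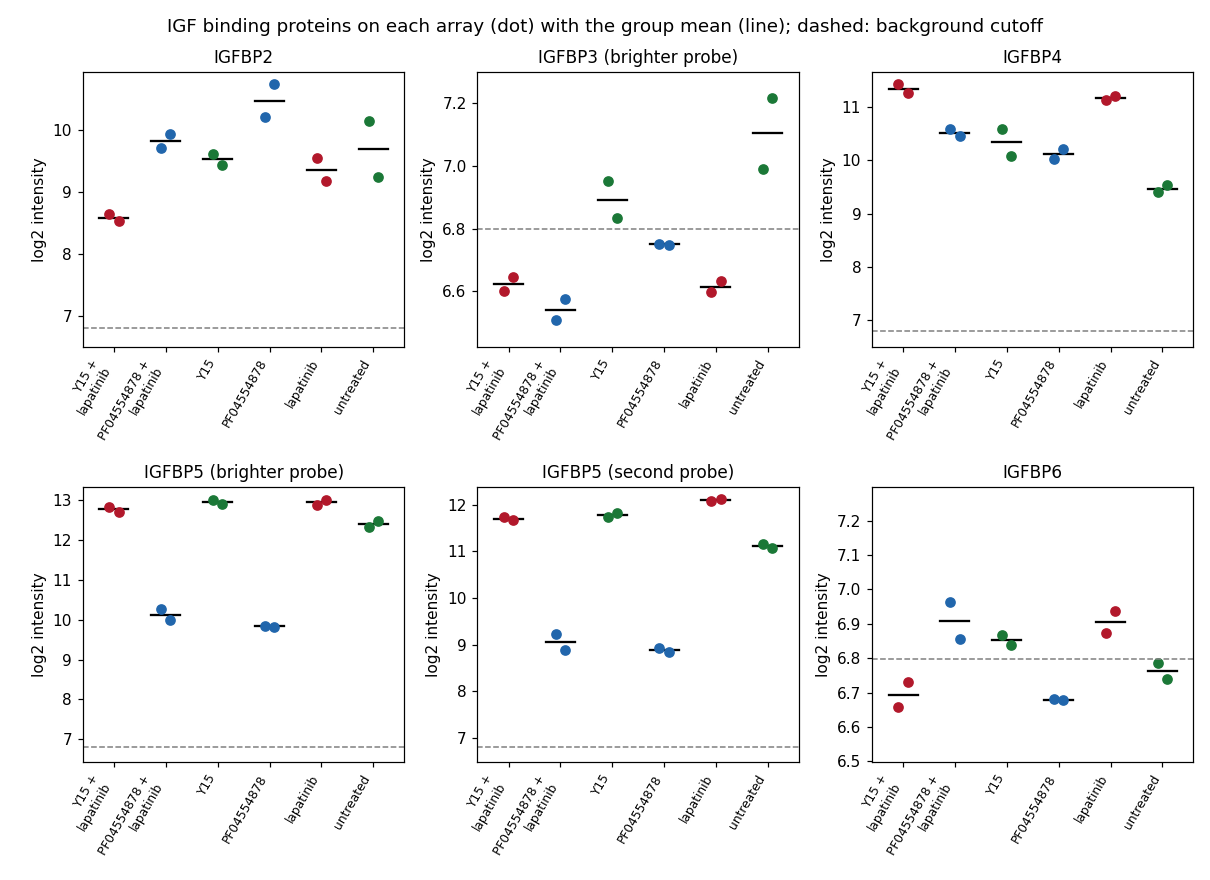
Log2 intensity of the IGF binding protein probes on each of the 12 arrays, by treatment group; dots are arrays, black lines group means, the dashed line the background cutoff of 6.80, and colours the 3 sets of highly correlated arrays (red with lapatinib, blue with PF04554878, green with untreated). IGFBP5 was low on both probes in all 4 arrays given PF04554878, and IGFBP4 was lowest in the 2 untreated arrays.

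The bases upstream of the annotated starts of IGFBP4 and IGFBP5 are shown because the array patterns of these binding protein genes differed. All 10 members matched the RefSeq promoter table (GRCh38.p14), and the 250 bases before each start were searched on both strands for a TATA box (TATAAA), a GC box (GGGCGG), a FOXO site (GTAAACA), an E-box (CACGTG) and the palindromic oestrogen response element. Capitals mark matches, and adjoining or overlapping GC boxes appear as longer runs. IGFBP4 lies on the plus strand at chr17:40443200-40443449 and IGFBP5 on the minus strand at chr2:216695550-216695799, both written 5′ to 3′ on their own strand.
IGFBP4: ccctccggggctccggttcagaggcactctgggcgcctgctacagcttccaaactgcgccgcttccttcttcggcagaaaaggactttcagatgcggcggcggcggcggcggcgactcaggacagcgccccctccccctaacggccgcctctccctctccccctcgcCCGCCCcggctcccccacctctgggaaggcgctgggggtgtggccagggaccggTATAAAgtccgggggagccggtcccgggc
IGFBP5: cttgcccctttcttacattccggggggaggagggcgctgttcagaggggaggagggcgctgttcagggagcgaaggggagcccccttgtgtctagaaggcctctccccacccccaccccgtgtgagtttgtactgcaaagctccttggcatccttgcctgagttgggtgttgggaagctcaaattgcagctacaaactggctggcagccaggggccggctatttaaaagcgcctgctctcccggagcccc
The IGFBP4 window held a TATA box from 29 to 24 bases before the start, found in 11.4% of 27305 such windows, and a GC box, found in 41.3%. IGFBP5 held none of these exact letters, which says nothing about the factors that act there.

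The docking protein genes IRS1 and IRS2 showed a clear split. IRS1, a main substrate of the IGF-I and insulin receptors, read 6.89 and 6.96 in the arrays labelled Y15 plus lapatinib, 8.47 and 8.56 with PF04554878 plus lapatinib, 9.14 and 9.16 with Y15, 8.71 and 8.49 with PF04554878, 7.17 and 7.21 with lapatinib, and 8.88 and 9.21 untreated. Only the 4 arrays of the lapatinib and Y15 plus lapatinib groups were under 8, and both other lapatinib-treated arrays, those with PF04554878, were not. The PF04554878 plus lapatinib arrays overlapped those of PF04554878 alone, and the Y15 arrays lay within the range of the untreated arrays. IRS2, its paralogue, read 6.77 and 6.91 with Y15 plus lapatinib, 7.73 and 7.58 with PF04554878 plus lapatinib, 8.67 and 8.99 with Y15, 7.36 and 7.33 with PF04554878, 6.73 and 6.78 with lapatinib, and 8.46 and 8.61 untreated. Both lapatinib arrays were below background, as was Y15 plus lapatinib replicate 1. The PF04554878 groups took an intermediate place for IRS2, and only the lapatinib and Y15 plus lapatinib groups overlapped.

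Their upstream bases are shown because the 2 genes were low in the same arrays. IRS1 lies on the minus strand at chr2:226799821-226800070 and IRS2 on the minus strand at chr13:109786584-109786833, with capitals marking the same motifs.
IRS1: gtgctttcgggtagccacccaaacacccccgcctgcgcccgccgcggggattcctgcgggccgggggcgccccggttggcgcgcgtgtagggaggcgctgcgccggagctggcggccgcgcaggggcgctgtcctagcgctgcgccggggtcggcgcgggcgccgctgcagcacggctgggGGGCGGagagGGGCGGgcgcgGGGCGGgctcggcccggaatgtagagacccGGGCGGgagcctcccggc
IRS2: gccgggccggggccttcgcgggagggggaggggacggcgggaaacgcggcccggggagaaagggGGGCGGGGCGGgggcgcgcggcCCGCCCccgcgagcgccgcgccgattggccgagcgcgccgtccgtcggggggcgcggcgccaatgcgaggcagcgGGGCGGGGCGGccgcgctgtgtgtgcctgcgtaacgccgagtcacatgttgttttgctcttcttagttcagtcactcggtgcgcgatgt
IRS1 held 4 GC boxes and IRS2 held 5, some of which overlap, in windows with 80.8% and 76.4% G or C bases. A GC box was present in 8 of the 10 member windows, against 41.3% of all windows. The FOXO site, present in 3.08% of all windows, was found upstream of IGFBP6 among the members, the E-box (6.28% of all windows) upstream of IGF2R, and the oestrogen response element (0.0476% of all windows) upstream of 0 of the 10 members.

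Among the receptors, IGF2R had the widest range over the 12 arrays, 0.89 against 0.85 for IGF1R. It read 9.16 and 9.06 in the arrays labelled Y15 plus lapatinib, 9.01 and 8.81 with PF04554878 plus lapatinib, 9.00 and 9.07 with Y15, 9.29 and 9.30 with PF04554878, 9.69 and 9.67 with lapatinib, and 9.01 and 9.34 untreated. Only the lapatinib arrays stood apart, above the other 10. IGF1R read 6.94 and 7.18 with Y15 plus lapatinib, 7.33 and 7.52 with PF04554878 plus lapatinib, 7.42 and 7.78 with Y15, 7.19 and 7.29 with PF04554878, 7.28 and 7.32 with lapatinib, and 7.66 and 7.36 untreated. The Y15 plus lapatinib arrays were its lowest, and the Y15, untreated and PF04554878 plus lapatinib arrays overlapped. INSR lay between 6.48 and 6.75 throughout, so no difference in INSR could be measured at this signal.

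**Figure D2:**
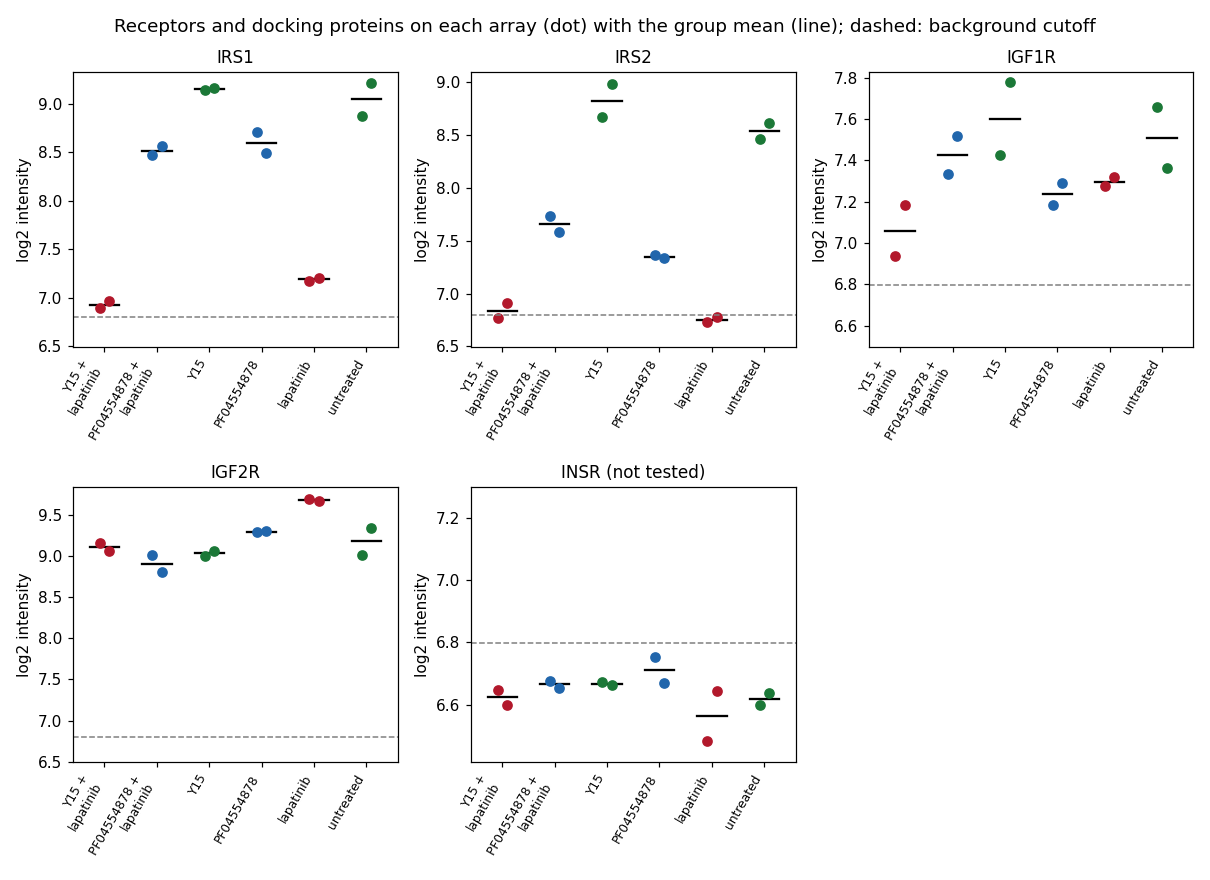
Log2 intensity of the docking protein and receptor probes on each of the 12 arrays, by treatment group; dots are arrays, black lines group means, the dashed line the background cutoff of 6.80, and colours as in the plot of binding proteins. IRS1 and IRS2 were lowest in the lapatinib and Y15 plus lapatinib arrays, and INSR stayed below the cutoff.

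Y15 against untreated asks what this FAK inhibitor does alone. The binding protein genes IGFBP4 and IGFBP5 rose in the arrays labelled Y15, while the receptors and docking proteins did not pass the test. IGFBP4 averaged 10.34 ± 0.36 with Y15 and 9.47 ± 0.09 untreated (SD, n = 2 each), a 1.83-fold rise (log2 change 0.88 ± 0.14 SE, limma adjusted p = 0.00186). IGFBP5 averaged 12.96 ± 0.07 and 12.40 ± 0.10, a 1.47-fold rise (0.56 ± 0.11, adjusted p = 0.00784), and its second probe differed by 0.66 ± 0.11. These were 2 of 9 tested members, against 5.44% of all genes called in either direction, 2.94% higher and 2.5% lower. IRS2 differed by 0.29 ± 0.11 (adjusted p = 0.138) and IRS1 by 0.10 ± 0.11 (95% interval -0.13 to 0.34). Both calls ended when only these 2 groups were fitted (adjusted p = 0.0630 for IGFBP4 and 0.0720 for IGFBP5). That of IGFBP5 also ended without Y15 replicate 1 (0.0901) and after background subtraction (0.0526), and IGFBP2 differed by -0.62 without untreated replicate 2 (adjusted p = 0.0418).

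Y15 plus lapatinib against lapatinib asks what Y15 adds when lapatinib is present. Here the members that changed were others, IGF2R and IGFBP2, and both fell. IGF2R averaged 9.11 ± 0.07 with the combination and 9.68 ± 0.02 with lapatinib (SD, n = 2 each), 1.49-fold lower (log2 change -0.57 ± 0.11 SE, limma adjusted p = 0.00473). IGFBP2 averaged 8.58 ± 0.09 and 9.35 ± 0.27, 1.71-fold lower (-0.77 ± 0.23, adjusted p = 0.0386). These 2 of 9 compare with 11.3% of all genes called in either direction, 6.04% higher and 5.25% lower. IGFBP4 differed by 0.18 ± 0.14 (adjusted p = 0.465), IGFBP5 by -0.17 ± 0.11 (adjusted p = 0.337, with the second probe at -0.39 ± 0.11 and an adjusted p of 0.0325 over all kept probes), IRS1 by -0.26 ± 0.11 (adjusted p = 0.146) and IGF1R by -0.24 ± 0.13 (adjusted p = 0.277). The call of IGF2R ended without lapatinib replicate 1 (0.0530) and under the replicate block (0.0772). That of IGFBP2 ended under 7 of 12 alternatives: without any of the 4 arrays in turn (adjusted p from 0.0636 to 0.312), under the replicate block (0.163), after background subtraction (0.105) and with no filter (0.0752). IRS1 passed after background subtraction (-0.91, 0.0183).

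PF04554878 plus lapatinib against PF04554878 asks what lapatinib adds to that inhibitor. IGF2R fell again, here by 1.31-fold, at 8.91 ± 0.14 with the combination and 9.30 ± 0.01 with PF04554878 (SD, n = 2 each), with a log2 change of -0.39 ± 0.11 SE (limma adjusted p = 0.0377). It was the only call among the 9 tested members, against 8.88% of all genes called in either direction, 4.1% higher and 4.78% lower, and it ended under 6 of 12 alternatives: without each of the 4 arrays in turn (adjusted p from 0.0501 to 0.306), under the replicate block (0.0649) and after background subtraction (0.101). IRS1 differed by -0.08 ± 0.11, with a 95% interval from -0.32 to 0.15, and IRS2 by 0.31 ± 0.11 (adjusted p = 0.0996). IGFBP4 differed by 0.40 ± 0.14 (adjusted p = 0.0855) and IGFBP2 by -0.66 ± 0.23 (adjusted p = 0.0886), both without overlap between the replicates. These 3 comparisons use different arrays, so the values of each member in them do not share a control.

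**Figure D3:**
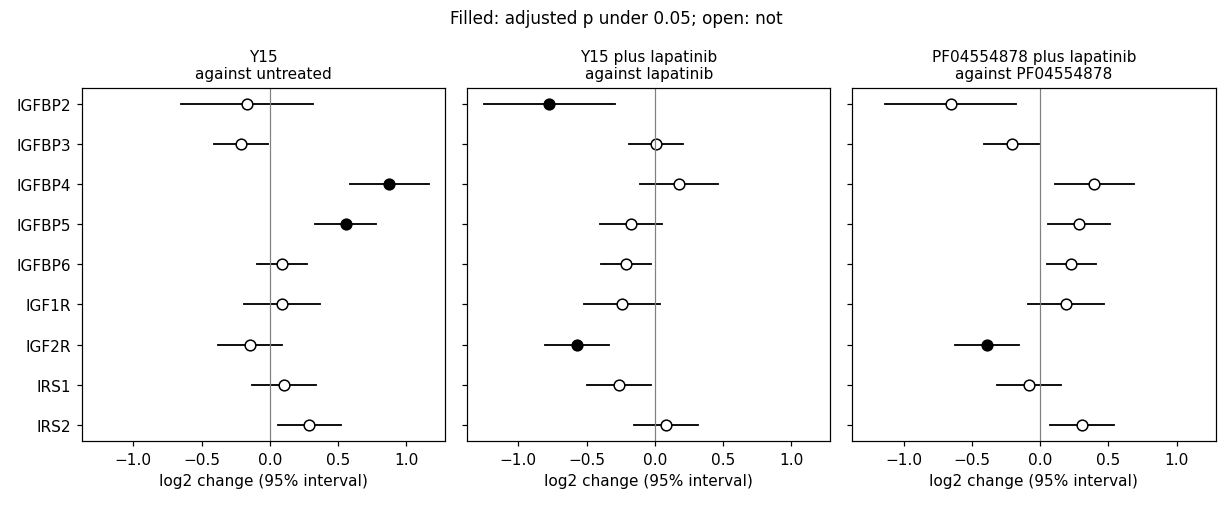
Log2 changes of the 9 tested members (points) with 95% intervals from the limma fit (lines) in the 3 comparisons made within a set of highly correlated arrays; filled points have an adjusted p under 0.05. IGFBP4 and IGFBP5 were higher with Y15, and IGF2R was lower in both comparisons of a combination with a single drug.

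Lapatinib against untreated is the first of the comparisons that cross the sets. In the arrays labelled lapatinib both docking protein genes were far lower and IGFBP4 was higher. IRS1 averaged 7.19 ± 0.02 with lapatinib and 9.04 ± 0.24 untreated (SD, n = 2 each), 3.61-fold lower (log2 change -1.85 ± 0.11 SE, limma adjusted p = 1.54e-09). IRS2, below background with lapatinib at 6.75 ± 0.04 against 8.54 ± 0.11 untreated, was at least 3.34-fold lower (adjusted p = 2.17e-09), where the bound sets the lapatinib arrays at the cutoff. IGFBP4 averaged 11.17 ± 0.05 and 9.47 ± 0.09, 3.26-fold higher (1.71 ± 0.14, adjusted p = 3.85e-08). IGFBP5 (0.53 ± 0.11, adjusted p = 0.000501) and IGF2R (0.50 ± 0.11, adjusted p = 0.00106) rose as well. IGFBP3, below background with lapatinib, was at least 1.24-fold lower (adjusted p = 0.000380), and its dimmer probe differed by -0.29 ± 0.12 (adjusted p = 0.0587 over all kept probes). In total 6 of 9 members passed, 3 in each direction, against 55.9% of all genes (27.9% higher and 28% lower), so the share of members called was near the background. IGFBP2 and IGF1R also passed without untreated replicate 2, at -0.79 (adjusted p = 0.00178) and -0.36 (adjusted p = 0.0444).

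Y15 plus lapatinib against untreated gave nearly the same members, with IGFBP2 and IGF1R in addition and IGF2R no longer called. IRS1 averaged 6.93 ± 0.05 with the combination and 9.04 ± 0.24 untreated (SD, n = 2 each), 4.34-fold lower (log2 change -2.12 ± 0.11 SE, limma adjusted p = 3.27e-10), and IRS2 was 3.25-fold lower (-1.70 ± 0.11). IGFBP4 was 3.68-fold higher (1.88 ± 0.14, adjusted p = 1.37e-08) and IGFBP5 1.28-fold higher (0.36 ± 0.11, adjusted p = 0.00958). IGFBP2 fell 2.15-fold (-1.10 ± 0.23, adjusted p = 0.000685), IGF1R 1.37-fold (-0.45 ± 0.13, adjusted p = 0.00849) and IGFBP3 at least 1.24-fold. The dimmer IGFBP3 probe differed by -0.17 ± 0.12 and did not pass (limma adjusted p = 0.253 over all kept probes). In total 7 of 9 members passed, 2 higher and 5 lower, against 54.6% of all genes (27.4% higher and 27.1% lower). The IGFBP2 change was -0.65 without untreated replicate 1 and -1.56 without untreated replicate 2, and passed in both. The calls of IGFBP5 and IGF1R ended without untreated replicate 1 (adjusted p = 0.0630 and 0.0895) and without Y15 plus lapatinib replicate 1 (0.0858 and 0.104). This comparison and the preceding comparison share their untreated arrays.

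PF04554878 against untreated was marked by the fall of IGFBP5, to 9.84 ± 0.01 in the arrays labelled PF04554878, against 12.40 ± 0.10 untreated (SD, n = 2 each). This was a 5.93-fold difference (log2 change -2.57 ± 0.11 SE, limma adjusted p = 8.1e-11), and the second probe gave -2.23 ± 0.11. IRS2 fell 2.28-fold (-1.19 ± 0.11, adjusted p = 4.24e-07), IRS1 1.36-fold (-0.45 ± 0.11, adjusted p = 0.00384) and IGFBP3, below background with PF04554878, at least 1.24-fold. The dimmer IGFBP3 probe differed by -0.15 ± 0.12 and did not pass (limma adjusted p = 0.350 over all kept probes). IGFBP4 rose 1.58-fold (0.66 ± 0.14, adjusted p = 0.000950) and IGFBP2 1.72-fold (0.78 ± 0.23, adjusted p = 0.0102). Together 6 of 9 members passed, 2 higher and 4 lower, against 45.2% of all genes (23.7% higher and 21.6% lower). Without untreated replicate 2 the calls of IGFBP2, IGFBP3 and IRS1 ended (adjusted p = 0.170, 0.0681 and 0.0539), while IGF1R and IGF2R passed at -0.42 (0.0256) and 0.29 (0.0450). Without PF04554878 replicate 2 those of IGFBP2 and IRS1 ended (0.136 and 0.0589), and that of IGFBP2 also ended in a fit of the 2 groups alone (0.0580) and after background subtraction (0.0565). Without untreated replicate 1 the IGFBP2 change was 1.24.

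PF04554878 plus lapatinib against untreated repeated the low IGFBP5, at 10.12 ± 0.20 with the combination against 12.40 ± 0.10 untreated (SD, n = 2 each), 4.86-fold lower (log2 change -2.28 ± 0.11 SE, limma adjusted p = 2.5e-10). IRS2 fell 1.84-fold (-0.88 ± 0.11, adjusted p = 8.9e-06), IRS1 1.44-fold (-0.53 ± 0.11, adjusted p = 0.00103) and IGFBP3 at least 1.24-fold. The dimmer IGFBP3 probe differed by -0.23 ± 0.12 and did not pass (limma adjusted p = 0.150 over all kept probes). IGFBP4 rose 2.08-fold (1.05 ± 0.14, adjusted p = 1.22e-05), and IGF2R differed by -0.27 ± 0.11 (adjusted p = 0.0561). These were 5 of 9 members, 1 higher and 4 lower, against 46.3% of all genes (23.7% higher and 22.6% lower). IGF2R passed at -0.44 without untreated replicate 1 (adjusted p = 0.00407) and at -0.37 without PF04554878 plus lapatinib replicate 1 (0.0398). IGFBP2 passed at 0.59 without untreated replicate 1 (0.0167).

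**Figure D4:**
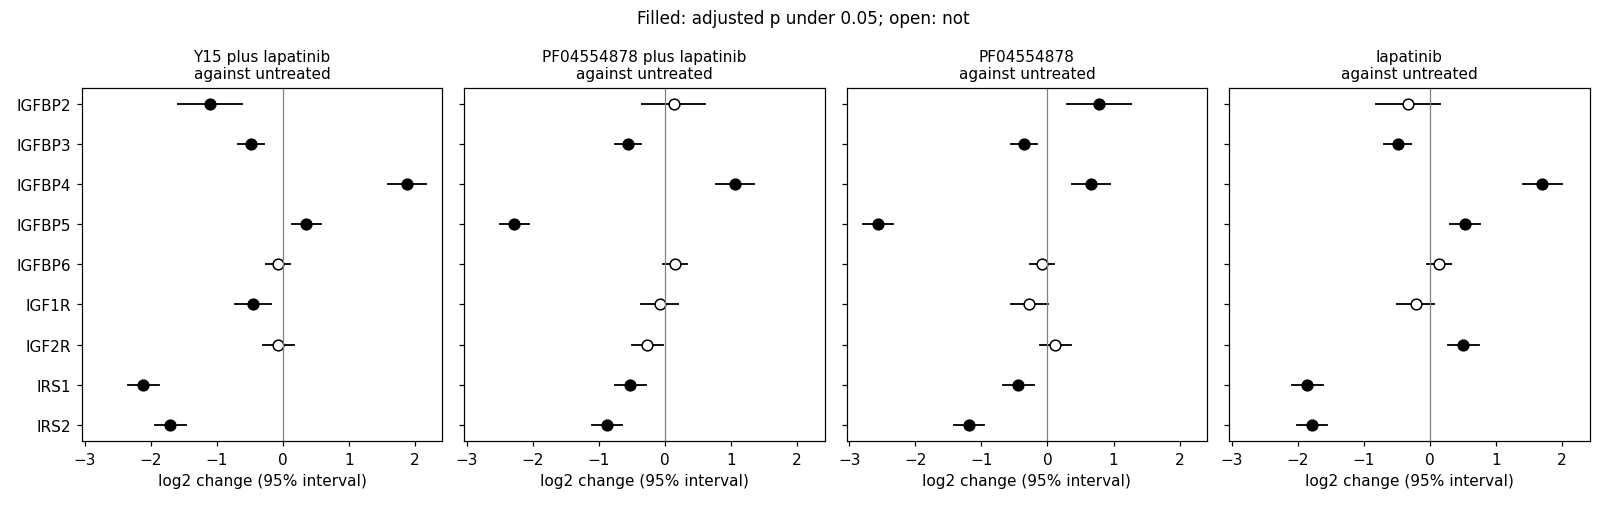
Log2 changes of the 9 tested members (points) with 95% intervals (lines) for the 4 comparisons with untreated arrays that cross the sets of correlated arrays; filled points have an adjusted p under 0.05. IRS1 and IRS2 were below 0 in all 4 and IGFBP4 above 0 in all 4, and IGFBP5 took opposite signs with and without PF04554878; the 4 share the same untreated arrays.

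Y15 against PF04554878 sets the FAK inhibitors side by side at the same dose and time. IGFBP5 was 8.71-fold higher in the arrays labelled Y15 than in those labelled PF04554878 (log2 difference 3.12 ± 0.11 SE, limma adjusted p = 9.74e-12), and IRS2 was 2.79-fold higher (1.48 ± 0.11, adjusted p = 3.99e-08). IRS1 was higher by 0.55 ± 0.11 (adjusted p = 0.000736) and IGF1R by 0.36 ± 0.13 (adjusted p = 0.0311), and IGFBP2 was lower by 0.95 ± 0.23, as coded -0.95 (adjusted p = 0.00277). IGFBP4, which differed by 0.22 ± 0.14, had a 95% interval from -0.07 to 0.51 and was not separated. Members called numbered 5 of 9, with 4 higher and 1 lower, against 47.4% of all genes (22.9% higher and 24.5% lower). The IGF1R call ended without Y15 replicate 2, PF04554878 replicate 1 or PF04554878 replicate 2 (adjusted p = 0.344, 0.153 and 0.0566) and after background subtraction (0.0808), and IGFBP4 passed at 0.47 without Y15 replicate 2 (0.00982).

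The combinations were also set against the partner drug of the other set. Y15 plus lapatinib against Y15 showed lower IRS1 (4.66-fold, log2 change -2.22 ± 0.11 SE, limma adjusted p = 2e-10), lower IRS2 (-1.99 ± 0.11), lower IGFBP2 (-0.94 ± 0.23), lower IGF1R (-0.54 ± 0.13) and lower IGFBP3 (at least 1.07-fold), and higher IGFBP4 (1.01 ± 0.14). This made 6 of 9 members, 1 higher and 5 lower, against 54.3% of all genes (26.8% higher and 27.5% lower). The dimmer IGFBP3 probe differed by -0.23 ± 0.12 and did not pass (limma adjusted p = 0.130 over all kept probes). The IGFBP3 call ended without Y15 replicate 1 or either combination array (adjusted p from 0.0615 to 0.167), under the replicate block (0.108) and after background subtraction (0.115), and that of IGF1R ended without Y15 replicate 2 (0.0556). PF04554878 plus lapatinib against lapatinib showed higher IRS1 (2.51-fold, 1.33 ± 0.11, adjusted p = 6.21e-08), higher IRS2 (at least 1.82-fold), and lower IGFBP5 (-2.82 ± 0.11), IGF2R (-0.77 ± 0.11) and IGFBP4 (-0.65 ± 0.14). These were 5 of 9 members, 2 higher and 3 lower, against 57.2% of all genes (29% higher and 28.2% lower).

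Interactions ask whether a FAK inhibitor differed in its effect with and without lapatinib, coded as combination minus lapatinib minus the FAK inhibitor plus untreated. For PF04554878, IRS1 (1.77 ± 0.16 SE, limma adjusted p = 2.7e-07) and IRS2 (2.09 ± 0.16, adjusted p = 4.09e-08) were positive, and IGFBP4 (-1.31 ± 0.19, adjusted p = 4.82e-05) and IGF2R (-0.89 ± 0.16, adjusted p = 0.000234) were negative. The log2 change of IRS1 with lapatinib was -1.85 in the absence of PF04554878 and -0.08 in its presence. Without untreated replicate 2, IGF1R passed as well (0.55, adjusted p = 0.0231), and without untreated replicate 1 so did IGFBP2 (-0.78, 0.0130). IGFBP3 was below background in the 3 drug groups of this contrast, so its interaction is not read. These were 4 of 9 members, 2 in each direction, against 45% of all genes (22.1% higher and 22.9% lower), and this interaction spans all 3 sets. For Y15, only IGFBP5 passed (-0.73 ± 0.15, adjusted p = 0.0193), 1 of 9 members against 3.87% of all genes (1.63% higher and 2.23% lower). The Y15 interaction sets a difference within the lapatinib set against a difference within the untreated set. Lapatinib and set therefore cannot be told apart in it. IGFBP5 was higher by 0.56 in Y15 than in untreated arrays, and the difference between Y15 plus lapatinib and lapatinib arrays was -0.17. The second probe gave -1.06 ± 0.15 (adjusted p = 0.00473 over all kept probes). On the brighter probe the call ended without Y15 replicate 1 or 2, lapatinib replicate 1 or 2, or Y15 plus lapatinib replicate 3 (adjusted p from 0.0521 to 0.0944), under the replicate block (0.106) and after background subtraction (0.0795). IGFBP4 pointed the same way (-0.70 ± 0.19) and did not pass (adjusted p = 0.0540). It passed at -0.77 without untreated replicate 2 (adjusted p = 0.0404) and at -0.95 without Y15 replicate 2 (0.0218). Without untreated replicate 2, IGF2R (-0.59, adjusted p = 0.0249) and IRS1 (-0.53, 0.0395) passed too. Without untreated replicate 1, IGFBP2 passed for Y15 at -1.06 (0.0151). In the PF04554878 interaction the IGFBP5 probes disagreed, at -0.25 ± 0.15 (adjusted p = 0.197) on the brighter and -0.81 ± 0.15 (adjusted p = 0.000497) on the other.

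Other genes of the pathway were read from a list of 107, of which 77 were tested. The ligand genes IGF1, IGF2 and INS were below background on all 12 arrays. Y15 against untreated called 6 of 77, all lower, or 7.79% against 5.44% of all genes in either direction and 2.5% lower. These included PIK3R1, the p85α regulatory subunit of PI3-kinase (-0.49 ± 0.10 SE, limma adjusted p = 0.00847), PIK3CB, a catalytic subunit (-0.49 ± 0.11, adjusted p = 0.0182) and MAP2K1, the ERK kinase MEK1 (-0.51 ± 0.12, adjusted p = 0.0245). Lapatinib against untreated called 44 of 77, 22 in each direction (57.1% against 55.9%), PF04554878 against untreated 37, with 22 higher and 15 lower (48.1% against 45.2%), Y15 plus lapatinib against untreated 42, with 18 higher and 24 lower (54.5% against 54.6%), and PF04554878 plus lapatinib against untreated 37, with 20 higher and 17 lower (48.1% against 46.3%). Across the other contrasts 40 of 77 passed in PF04554878 plus lapatinib against lapatinib (24 higher, 16 lower, 51.9% against 57.2% of all genes), 43 in Y15 plus lapatinib against Y15 (17 higher, 26 lower, 55.8% against 54.3%), 33 in Y15 against PF04554878 (13 higher, 20 lower, 42.9% against 47.4%), 4 in the Y15 interaction (all higher, 5.19% against 3.87% in either direction and 1.63% higher) and 35 in that of PF04554878 (17 higher, 18 lower, 45.5% against 45%). For the 5 comparisons with untreated arrays the list's median log2 change lay between -0.04 and 0.03, and that of all tested genes between -0.01 and 0.01.

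Several genes whose products act outside the cell on the binding proteins or their proteases differed. The pappalysin genes themselves, PAPPA and PAPPA2, were above background on 0 arrays and were not tested. STC2, stanniocalcin 2, a secreted inhibitor of the IGFBP4-cleaving pappalysins, averaged 10.75 with Y15 plus lapatinib, 10.25 with PF04554878 plus lapatinib, 8.47 with Y15, 10.20 with PF04554878, 10.01 with lapatinib and 8.29 untreated. It was higher by 1.72 ± 0.10 with lapatinib and by 1.92 ± 0.10 with PF04554878 than untreated, and by 0.74 ± 0.10 in Y15 plus lapatinib than in lapatinib arrays (limma adjusted p = 0.000609). STC1, its relative, averaged 8.18, 10.37, 8.03, 10.06, 7.43 and 8.03 in the same order of groups, and so was high in the arrays given PF04554878, where IGFBP5 was low. HTRA1, a secreted protease able to cut binding proteins, averaged 8.73 with PF04554878 against 6.67, below background, untreated, at least 3.80-fold higher (limma adjusted p = 6.69e-10). Of 6 tested genes in this group of proteases and inhibitors, 3 were higher and 2 lower with PF04554878 against untreated, where 45.2% of all genes were called (23.7% higher and 21.6% lower).

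Inside the cell, SOCS2 and RPS6KB1 were low in the same arrays as IRS1. SOCS2, a suppressor of cytokine signalling, averaged 6.75 with Y15 plus lapatinib, 9.13 with PF04554878 plus lapatinib, 9.12 with Y15, 8.83 with PF04554878, 6.70, below background, with lapatinib and 9.33 untreated. It was at least 5.80-fold lower with lapatinib than untreated (limma adjusted p = 2.88e-12), and the log2 change of a second probe was -1.14 ± 0.09. RPS6KB1, the S6 kinase that acts downstream of mTOR and phosphorylates IRS1, averaged 8.45, 11.21, 11.30, 11.21, 8.49 and 11.34 in the same order, a log2 change of -2.86 ± 0.14 for lapatinib against untreated (adjusted p = 1.35e-10). ENPP1, which restrains the insulin receptor, rose by 1.62 ± 0.09 with PF04554878 against untreated (adjusted p = 2.55e-09), with a second probe at 0.34 ± 0.10. GRB10, an adaptor that damps insulin and IGF receptor signalling, was higher by 0.58 ± 0.10 with Y15 plus lapatinib than with lapatinib (adjusted p = 0.00186) and passed the Y15 interaction (0.61 ± 0.14, adjusted p = 0.0269), as did STC1 (0.75 ± 0.17, adjusted p = 0.0281) and PHIP, an IRS1-binding protein (0.80 ± 0.21, adjusted p = 0.0460). The GRB10 probes disagreed, the others giving 0.57 ± 0.09 and -0.12 ± 0.11 against lapatinib, and the second PHIP probe gave an interaction of 0.54 ± 0.15 (adjusted p = 0.0644 over all kept probes). In Y15 plus lapatinib against lapatinib 11 of 77 passed (14.3% against 11.3% of all genes), 5 higher and 6 lower. Lower in PF04554878 plus lapatinib than in PF04554878 arrays were GRB14, a relative of GRB10 (-1.10 ± 0.11, adjusted p = 1.24e-05, with a second probe at -0.05 ± 0.08), PIK3R1 (-0.67 ± 0.10) and the lipid phosphatase gene INPP4B (-1.03 ± 0.15), among 5 of 77 called, 1 higher and 4 lower (6.49% against 8.88%).

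**Figure D5:**
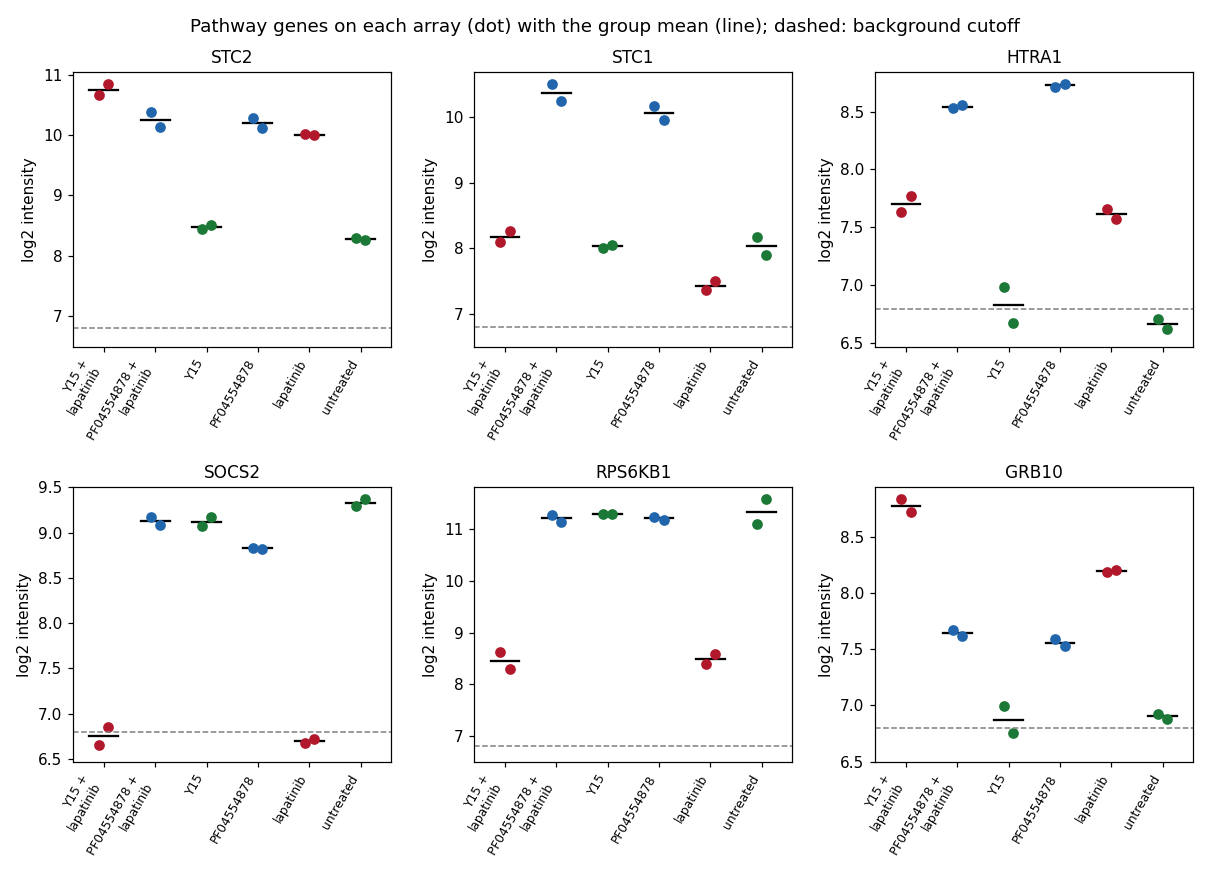
Log2 intensity of 6 pathway genes on each of the 12 arrays, by treatment group; dots are arrays, black lines group means, the dashed line the background cutoff of 6.80, and colours as in the plot of binding proteins. SOCS2 and RPS6KB1 were low in the lapatinib and Y15 plus lapatinib arrays, and STC1 and HTRA1 were highest in the arrays given PF04554878.

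For each tested member the genes with the most similar values were found by Pearson's r over the 12 arrays, which share the 3 sets, so high values are common. IGFBP5 was closest to SUSD3 (r = 0.994) and SNHG5 (0.993), IRS1 to CDCA7 (0.993) and RAB2B (0.990), and IRS2 to BCL11B (0.993) and MYC (0.988). IGFBP2 was closest to TNFRSF12A (0.968) and METRN (0.957), IGFBP3 to BOLL (0.963) and ADGRG6 (0.960), and IGF2R to SLC25A22 (0.960) and SSRP1 (0.914). IGFBP4 was closest to NDUFAF3 (0.952) and HIF1AN (0.951), IGF1R to HDAC7 (0.909) and CNPY3 (0.891), and IGFBP6 to POLD4 (0.867) and RNVU1-7 (0.837). The IGFBP3 probe exceeded the cutoff on 4 of the 12 arrays and that of IGFBP6 on 6, so their r rests largely on values near background.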

How the data were processed

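Expression was measured on 12 Illumina arrays, 2 in each of 6 groups read from the sample titles. The authors deposited a table of log2 probe intensities. The submitters' processing notes name GenomeStudio; how background was treated and which normalization was applied were not found in them. The values ran from 6.20 to 13.90, and after sorting each column the 12 arrays agreed to within 0.0146 at every rank. A second deposited table has 24 per-sample columns whose names match no sample label, and it was not used.

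The background level was taken as the most frequent value, 6.55, in a histogram with bins of 0.02. Its spread, 0.0827, was computed from values under that mode, and the cutoff lies 3 such SDs above it. Probes above it on at least 2 arrays were kept (19922), and of several kept probes for a gene the brightest on average stood for it, giving 11564 genes. Of 47318 probes, 30111 carried 1 symbol, 8 several and 17199 none, and updating symbols through gene numbers changed 0. On each array 34.4% of probes were above the cutoff, which follows from the near-equal sorted columns and is no check of the arrays. A shift shared by most genes would not show in values so aligned, nor in the medians of all genes. With 2 arrays a group, precision is limited by their number.

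A model with a mean for each group was fitted to all 12 arrays by the lmFit and eBayes functions of limma (version 3.58.1, R 4.3.3), with 6 residual degrees of freedom and 9.10 from the prior. There were 12 comparisons, with Benjamini-Hochberg adjustment over all genes in each and a threshold of 0.05. A gene with no probe over the cutoff in a group has only a bound there, and its fold is given as at least the value obtained with that group at the cutoff. The fit was tested on simulated data. All members were named, with the 3 pathway genes of smallest adjusted p in each comparison where called, and the 2 most similar genes of each member; the values printed for these pathway genes in further comparisons were chosen after they had been seen. The members, lists and tests were chosen with earlier results of these data known. Alternatives were no filter, a stricter filter requiring 12 arrays, testing probes instead of genes, fitting the compared groups alone, a block for the replicate number, background subtraction, median centring, an intensity trend in the prior variance, and each array left out in turn.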

Additional observations from a re-analysis of the deposited data

Results flagged for a closer look

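Tests of the interaction itself found 5 member effects that differed with and without lapatinib: 1 of 9 members for Y15, against 3.87% of all genes, and 4 of 9 for PF04554878, against 45%, a share near that of all genes. The effect of Y15 on IGFBP5 differed by -0.73 (limma adjusted p = 0.0193), with a call that held under 9 of 16 alternatives (adjusted p from 0.0111 to 0.106). The effect of PF04554878 differed by -1.31 for IGFBP4, -0.89 for IGF2R, 1.77 for IRS1 and 2.09 for IRS2, and these 4 held under each alternative run (16 for IGFBP4, IGF2R and IRS1 and 15 for IRS2). IRS2 was below background in the lapatinib arrays, and with these set at the cutoff its interaction was at least 2.05. Both interactions cross the sets of correlated arrays, so treatment and set cannot be told apart in either.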

How the results depend on the processing

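Of 1332 member values recomputed under the alternatives, 1239 kept their direction and their side of the threshold, 47 lost a call, 25 gained a call, and 21 that were called in neither fit changed sign. No called value changed sign. Background subtraction moved the PF04554878 interaction of IGFBP3, a gene at background in 3 of the 4 groups, to 1.29, so no value of it is read. The calls of IRS1 and IRS2 against Y15 or untreated in the lapatinib and Y15 plus lapatinib arrays, of IGFBP4 in every comparison with untreated other than Y15 alone, and of IGFBP5 in both comparisons of a PF04554878 group with untreated held under each alternative run for them.

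Fitting the compared groups only left 0 members called for Y15 against untreated (limma, 2 at an unadjusted p under 0.05) and raised PF04554878 plus lapatinib against PF04554878 to 3. Background subtraction gave 1 for Y15 against untreated, and 0 for PF04554878 plus lapatinib against PF04554878 and for the Y15 interaction (5 and 6 at an unadjusted p under 0.05). With no filter, Y15 plus lapatinib against lapatinib had 1, and with the filter on all 12 arrays, which does not test IGFBP3, IGFBP6 or IRS2, PF04554878 plus lapatinib against untreated had 3. Replicate numbers pair arrays by number only: in the 5 groups numbered 1 and 2, deviations of the arrays numbered 1 correlated from -0.33 to 0.13 across genes. With the replicate block, 0 members were called in Y15 plus lapatinib against lapatinib, PF04554878 plus lapatinib against PF04554878 and the Y15 interaction (3, 6 and 3 at an unadjusted p under 0.05), and all genes called there moved from 1306 to 510 in the first and from 447 to 22 in the last, and from 629 to 356 for Y15 against untreated. Replicate number 3 occurs on 1 array only, so its block term fits that array exactly. Under the block the Y15 plus lapatinib group therefore rests on 1 array. The part of this in these moves was not tested.

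Leaving out 1 array at a time gave 1 to 3 members for Y15 against untreated, 4 to 6 for PF04554878, 6 to 8 for lapatinib, 5 to 7 for Y15 plus lapatinib and 5 to 7 for PF04554878 plus lapatinib, all against untreated. It gave 0 to 1 for Y15 plus lapatinib against lapatinib, 0 to 0 for PF04554878 plus lapatinib against PF04554878, 5 to 5 for Y15 plus lapatinib against Y15 and for PF04554878 plus lapatinib against lapatinib, 4 to 5 for Y15 against PF04554878, 0 to 4 for the Y15 interaction and 4 to 6 for that of PF04554878. A group with 1 array left is assumed to vary like the others. All genes called ranged from 136 to 1171 for Y15 against untreated (629 with all arrays), from 299 to 620 for Y15 plus lapatinib against lapatinib (1306), from 420 to 584 for PF04554878 plus lapatinib against PF04554878 (1027) and from 30 to 999 for the Y15 interaction (447). Fitting the compared groups only gave 60 genes for Y15 against untreated and 288 for the Y15 interaction, background subtraction 419 and 214. With every kept probe as a feature, probes called numbered 10049 for lapatinib against untreated (6470 genes), 9629 for Y15 plus lapatinib against untreated (6309), 10222 for PF04554878 plus lapatinib against lapatinib (6612), 9591 for Y15 plus lapatinib against Y15 (6279) and 7825 for the PF04554878 interaction (5208), by construction over more features.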
